A study of Mus musculus with 12 samples.

Results

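The 6 genes described here are *Clk1*, *Clk2*, *Clk3*, and *Clk4*, which encode the CDC-like kinases (CLKs), and *Srpk1* and *Srpk2*, which encode the SR protein kinases (SRPKs). They were chosen by symbol from 22456 genes measured in mouse liver. The skipped exon (SE) events that carry the same symbols number 84 of the 125870 different events in the tables of genotype differences in fasted and refed liver. Liver RNA came from 12 male BALB/cByJ mice aged 2 to 8 months, and 3 mice made up each of 4 groups, *Lpin1*+/+ or *Lpin1*-/- and either fasted or refed. The *Lpin1*-/- mice carry the spontaneous fatty liver dystrophy (fld) mutation throughout the body, and the *Lpin1*+/+ mice were littermates. Fasted mice had no food for 16 h in single cages, and refed mice had chow for 5 h after such a fast, so the feeding states also differ in the time of day. The study asked how loss of lipin 1, a phosphatidate phosphatase and transcriptional coactivator, changes liver RNA and its splicing in both states. The comparisons below ask whether the kinases that phosphorylate splicing factors differed in RNA level or in their own exons.

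SR proteins bind exons and recruit the spliceosome, and they work only when the arginine-serine (RS) repeats of their tails are phosphorylated. SRPKs act largely in the cytoplasm and mark SR proteins for import into the nucleus, while CLKs add further phosphates in the nucleus and release SR proteins from nuclear speckles. CLK transcripts are themselves spliced in alternative ways: skipping of a conserved exon, exon 4 of the coding transcripts, shifts the reading frame and leaves a short form that lacks the kinase domain. In liver, CLK2 is known as a kinase that rises with feeding and insulin and restrains gluconeogenic genes.

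Exon 4 of the 4 CLK genes is shown because its skipping makes the short form. Sequences here are those of GENCODE M21 transcripts on GRCm38, written 5′ to 3′. Capitals mark the first 3 bases of the exon, which a shorter form of the exon in *Clk1*, *Clk2*, and *Clk4* lacks, and *Clk3* has no capitals.
Clk1 exon 4, chr1:58420121-58420211, minus strand: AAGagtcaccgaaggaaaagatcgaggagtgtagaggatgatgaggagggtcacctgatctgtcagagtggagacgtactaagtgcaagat
Clk4 exon 4, chr11:51273078-51273168, plus strand: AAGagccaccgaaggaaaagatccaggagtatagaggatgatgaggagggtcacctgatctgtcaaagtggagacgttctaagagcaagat
Clk2 exon 4, chr3:89169615-89169702, plus strand: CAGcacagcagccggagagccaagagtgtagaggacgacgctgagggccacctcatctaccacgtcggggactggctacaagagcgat
Clk3 exon 4, chr9:57758627-57758723, minus strand: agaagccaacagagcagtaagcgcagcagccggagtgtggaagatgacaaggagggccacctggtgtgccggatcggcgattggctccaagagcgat

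Exon 4 of *Clk1* and *Clk4* had the same base at 85 of 91 positions (93.4%). The longest run of bases that the main coding transcripts of these genes shared was 34, which is shorter than the 69-base reads. Those of the other pairs of the 6 genes shared runs of at most 18 bases. Other annotated transcripts were not compared. None of the 4 exons has a length that is a multiple of 3. Without exon 4 the frame of the coding transcript with the exon shown reached a stop after 135 residues in place of 483 in *Clk1*, 134 in place of 481 in *Clk4*, 136 in place of 500 in *Clk2*, and 300 in place of 638 in *Clk3*. The *Clk2* transcript compared for shared runs has an exon 4 of 85 bases, and without it stops after 136 residues in place of 499. In *Clk1* and *Clk4* this stop lies at base 19 of exon 5, and both are shown with the stop in capitals.
Clk1 exon 5, chr1:58419667-58419733, minus strand: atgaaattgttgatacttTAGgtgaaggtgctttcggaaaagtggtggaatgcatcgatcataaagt
Clk4 exon 5, chr11:51273560-51273626, plus strand: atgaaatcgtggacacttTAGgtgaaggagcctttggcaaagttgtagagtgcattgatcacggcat

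From this stop to the last exon junction there are 809 bases in both transcripts. The annotation holds transcripts that join exon 3 to exon 5 in all 4 genes. Of these, 2 of *Clk1*, 1 of *Clk2*, 1 of *Clk3*, and 2 of *Clk4* are listed as targets of nonsense-mediated decay, 1 of *Clk1* as a retained intron, and 1 of *Clk4* as protein coding. A further *Clk4* exon of 67 bases, absent from the main coding transcript and exon 3 of another, is shown because its mean inclusion differed most between genotypes in fasted liver among the exons of the 6 genes.
Clk4 67-base exon, chr11:51268165-51268231, plus strand: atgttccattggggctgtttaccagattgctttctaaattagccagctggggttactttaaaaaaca

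The 67-base exon changes which start codon of *Clk4* opens the long frame. With it, the frame of the alternative start runs for 484 residues and that of the main start stops after 53. Without it, the alternative frame stops after 37 residues and the main frame runs for 481. The long frames share their last 427 residues and differ in their first 57 and 54.

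RNA levels are RPKM, read counts divided by transcript length and library depth, so they can be compared between genes. Of the 22456 genes, 11507 had a mean of at least 0.5 RPKM and were tested, all 6 kinases among them. *Lpin1* itself was at 22.0, 0.726, and 1.76 RPKM in fasted *Lpin1*+/+ liver and at 2.92, 0.784, and 2.76 in refed *Lpin1*+/+ liver, and no *Lpin1*-/- library exceeded 0.0597 RPKM. Even so, its genotype difference in log2(RPKM + 1) was not called by limma in fasted (-2.19, adjusted p = 0.0562) or refed liver (-1.55, adjusted p = 0.231). A gene that is not called may therefore still differ. Hepatocyte markers summed to 54350 to 69700 RPKM in fasted *Lpin1*+/+ and 58190 to 72280 in fasted *Lpin1*-/- livers. Of the marker lists of 8 liver cell types, 1 endothelial marker passed the test between genotypes in fasted liver and 1 Kupffer cell marker between feeding states in *Lpin1*-/- liver. No marker list was at 0. In whole liver, fewer cells of a type and less RNA per cell cannot be told apart.

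*Clk1* had the highest level of the 6 genes, with a mean of 22.8 RPKM over the 12 libraries, followed by *Clk3* at 13.5, *Clk4* at 12.2, *Clk2* at 6.16, *Srpk1* at 5.95, and *Srpk2* at 3.26. *Clk1* lay at percentile 74.2 of the tested genes and *Srpk2* at percentile 32.1. The lowest *Clk1* library, at 16.8 RPKM, was above every library of the other 5 genes, and *Srpk2* was the lowest of the 6 in every library. *Clk2* and *Srpk1*, neighbors in this order, overlapped in all 4 groups. *Clk3* and *Clk4* changed places: *Clk4* was the higher gene in every fasted *Lpin1*-/- library, *Clk3* was the higher gene in every refed library, and in fasted *Lpin1*+/+ liver their libraries overlapped.

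**Figure D1:**
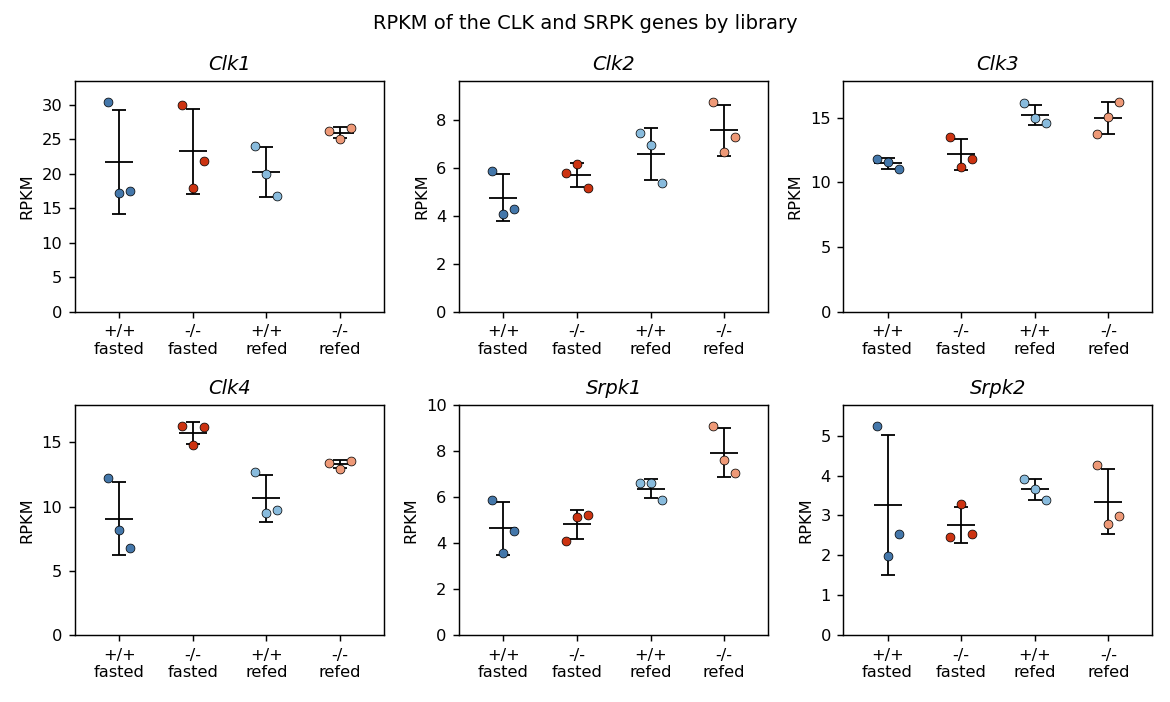
RPKM of each kinase gene (vertical axis, from 0) in the 4 groups. Points are single livers in the order of replicates 1 to 3, the long bar is the mean, and the short bars are 1 SD (n = 3). *Clk4* libraries of fasted *Lpin1*-/- liver sit at 14.8 to 16.3, all above those of fasted *Lpin1*+/+ liver.

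*Clk4*, a CLK that resides in the nucleus, was the kinase gene whose level differed between genotypes in the fasted state. Its RPKM was 12.3, 8.15, and 6.81 in fasted *Lpin1*+/+ liver and 16.3, 14.8, and 16.2 in fasted *Lpin1*-/- liver, so the lowest *Lpin1*-/- library was above the highest *Lpin1*+/+ library. The means were 9.07 ± 2.84 and 15.7 ± 0.854 (SD, n = 3). On the log2(RPKM + 1) scale, on which all fold changes here are given, *Clk4* was 0.77 higher in *Lpin1*-/- liver (SE 0.20, 95% interval 0.32 to 1.22, 1.70-fold), with an adjusted p of 0.0231 from limma with Benjamini-Hochberg adjustment over all genes tested. It was 1 of 6 kinase genes called in this comparison, beside 18.8% of all genes. The call was lost when only the 6 libraries compared were fitted (adjusted p = 0.108), and without *Lpin1*+/+ replicate 2 (0.0521) or 3 (0.105) or *Lpin1*-/- replicate 1 (0.0613), 2 (0.0505), or 3 (0.0585), with changes of 0.60 to 0.99 over all single libraries left out.

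In fasted liver the summed stellate cell markers were 64.7 to 151 RPKM in *Lpin1*+/+ and 189 to 273 in *Lpin1*-/-, with no overlap. None of the 5 markers passed the test. This sum is largely *Dcn*, with a mean of 159 RPKM over the 12 libraries, beside 1.74 to 3.03 for each other marker. The part of these markers in the *Clk4* difference was not tested. In the refed state *Clk4* was at 12.7, 9.47, and 9.71 RPKM in *Lpin1*+/+ and 13.4, 12.9, and 13.5 in *Lpin1*-/- liver. The groups again did not overlap, but the difference of 0.31 (95% interval -0.14 to 0.75) did not pass the test (adjusted p = 0.409). The *Clk4* differences in the fasted and refed states were not shown to be unequal (interaction -0.46, 95% interval -1.09 to 0.17, adjusted p = 0.419).

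*Clk1*, the most abundant of the kinases, was at 30.4, 17.2, and 17.5 RPKM in fasted *Lpin1*+/+, 30.002, 17.9, and 21.8 in fasted *Lpin1*-/-, 24.1, 19.97, and 16.8 in refed *Lpin1*+/+, and 26.2, 25.0, and 26.6 in refed *Lpin1*-/- liver. Replicate 1 of both fasted groups was far above the other libraries of its group. The genotype difference in fasted liver was 0.11 (95% interval -0.43 to 0.66, adjusted p = 0.791). In refed liver all *Lpin1*-/- libraries were above all *Lpin1*+/+ libraries, but the difference of 0.36 (95% interval -0.19 to 0.90) did not pass (adjusted p = 0.431).

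*Clk2*, the CLK with a known role in the fed liver, was at 5.89, 4.10, and 4.28 RPKM in fasted *Lpin1*+/+ and 7.47, 6.95, and 5.37 in refed *Lpin1*+/+ liver. It was at 5.81, 6.16, and 5.16 in fasted *Lpin1*-/- and 8.76, 6.67, and 7.32 in refed *Lpin1*-/- liver. The refed libraries were above the fasted ones without overlap in *Lpin1*-/- liver only, and overlapped in *Lpin1*+/+ liver. The feeding difference was 0.40 in *Lpin1*+/+ (95% interval -0.02 to 0.82, adjusted p = 0.376) and 0.35 in *Lpin1*-/- liver (95% interval -0.07 to 0.77, adjusted p = 0.21), and neither passed. With rescaled libraries these differences were 0.20 and 0.13. These values are of RNA, and CLK2 protein was not measured here.

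*Clk3*, which is best known from testis, had the smallest standard error of the 6 genes (0.15). It was at 11.8, 11.6, and 11.03 RPKM in fasted and 16.1, 15.0, and 14.6 in refed *Lpin1*+/+ liver, and at 13.5, 11.2, and 11.8 in fasted and 13.7, 15.1, and 16.2 in refed *Lpin1*-/- liver. Refed libraries were above fasted ones without overlap in both genotypes. The feeding difference was 0.38 in *Lpin1*+/+ (unadjusted p = 0.0252 from limma, adjusted p = 0.271) and 0.28 in *Lpin1*-/- liver (adjusted p = 0.189). The median of all genes tested was also above 0 for these contrasts, at 0.19 and 0.25. Rescaled libraries are those divided by their median ratio to each gene's geometric mean over all libraries, from genes above 0 in all. With them the *Clk3* differences were 0.15 and 0.05.

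*Srpk1*, the more widely expressed SRPK, was higher in refed than in fasted *Lpin1*-/- liver. Its RPKM was 4.11, 5.13, and 5.25 in the fasted and 9.12, 7.63, and 7.08 in the refed state, with no overlap and means of 4.83 ± 0.626 and 7.94 ± 1.05 (SD, n = 3). The difference was 0.62 (SE 0.19, 95% interval 0.20 to 1.04, 1.53-fold, adjusted p = 0.0418 from limma). It was 1 of 6 kinase genes called, beside 20.7% of all genes. The call was lost with rescaled libraries (0.40, adjusted p = 0.0901), with the replicate number as a block (0.62, adjusted p = 0.0671), when only the 6 libraries compared were fitted (adjusted p = 0.0631), and without any library other than fasted *Lpin1*+/+ replicates 1 and 2, at adjusted p-values of 0.0529 to 0.133. In *Lpin1*+/+ liver *Srpk1* was at 5.87, 3.56, and 4.54 in the fasted and 6.63, 6.64, and 5.89 in the refed state, also without overlap, and the difference of 0.40 did not pass (adjusted p = 0.376). In *Lpin1*-/- liver the summed Kupffer cell markers were 296.9 to 795 RPKM in the fasted and 90.9 to 221.5 in the refed state, with 1 of 6 markers called, and the summed lymphocyte markers 1.73 to 5.05 and 0.673 to 1.60, so neither overlapped. Their part in the *Srpk1* difference was not tested. The feeding differences of the 2 genotypes were not shown to be unequal (interaction 0.21, 95% interval -0.38 to 0.81, adjusted p = 0.689).

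*Srpk2* was at 5.25, 1.99, and 2.54 RPKM in fasted *Lpin1*+/+, 2.46, 3.29, and 2.53 in fasted *Lpin1*-/-, 3.92, 3.67, and 3.38 in refed *Lpin1*+/+, and 4.28, 2.78, and 2.99 in refed *Lpin1*-/- liver. Replicate 1 of fasted *Lpin1*+/+ liver was the highest of the 12 libraries, and the groups overlapped in all 4 comparisons. Its differences lay between -0.11 and 0.20, and the 95% intervals reached from -0.68 to 0.77.

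Across the comparisons, 0 of 6 kinase genes were called for feeding in *Lpin1*+/+ liver (1 at an unadjusted limma p under 0.05), beside 1.72% of all genes, and 0 of 6 for genotype in refed liver (0 unadjusted), beside 6.67%. No kinase gene was called for the interaction of genotype and feeding (0 unadjusted), beside 1.28% of all genes. The groups did not overlap for 2 of 6 kinase genes for feeding in *Lpin1*+/+ liver, 4 of 6 for feeding in *Lpin1*-/- liver, 1 of 6 for genotype in fasted liver, and 3 of 6 for genotype in refed liver. Among all genes the shares were 18.1%, 46.8%, 32.9%, and 33.9%. The comparisons share samples, so they are not independent of each other. In the order just given, 88.4%, 85.9%, 29.9%, and 39% of all called genes were higher, and 63.3%, 68.9%, 41%, and 57.3% with rescaled libraries.

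**Figure D2:**
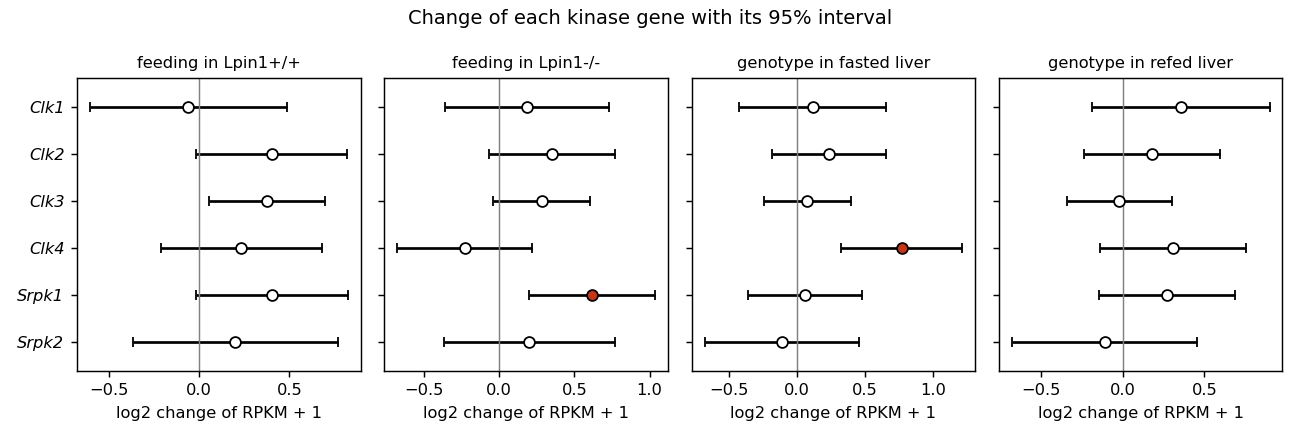
Log2 change of RPKM + 1 (horizontal axis) for each kinase gene in the 4 comparisons, refed minus fasted or *Lpin1*-/- minus *Lpin1*+/+. Bars are 95% intervals from limma, and filled points passed an adjusted p of 0.05. *Clk4* in fasted liver (0.77) and *Srpk1* in *Lpin1*-/- liver (0.62) are the filled points.

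Over the 12 libraries, the kinase genes whose log2(RPKM + 1) moved most alike were *Clk2* and *Srpk1* (Pearson r = 0.869), and those least alike were *Clk4* and *Srpk2* (r = 0.175). Among all tested genes, *Luc7l2* (0.953), *Gm14327* (0.953), and *Leng1* (0.936) followed *Clk2* most closely. *Zfp653*, *Ggnbp2*, and *Unc45a* were nearest to *Clk4* (0.917, 0.915, and 0.909), and *Ccnl2*, *Gm14698*, and *Insc* to *Clk3* (0.912, 0.908, and 0.908). For *Clk1* the nearest genes were *Arid4b*, *Carf*, and *Zfp280d* (0.851, 0.829, and 0.824), for *Srpk1* they were *Atp6v0a2*, *Tnfaip1*, and *Gys1* (0.977, 0.971, and 0.97), and for *Srpk2* they were *Kat6a*, *Ep400*, and *Acin1* (0.972, 0.962, and 0.962). These values describe 12 libraries that share groups and depth.

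Beside the kinases stood their substrates. Of 24 SR and SR-related proteins tested, 5 were higher and 3 lower in fasted *Lpin1*-/- than in fasted *Lpin1*+/+ liver, with a median of 0.21 beside -0.14 for all genes. These are 8 of 24, beside 18.8% of all genes called, and with rescaled libraries 7 were higher and 2 lower. *Srsf5* (0.98, adjusted p = 0.0153) and *Srsf7* (0.96, 0.0316), SR proteins, were higher. *Srsf1* (-1.02, 0.0273), the founding SR protein, and *Rsrc1* (-1.08, 0.00408), an RS-domain protein, were lower. With feeding in *Lpin1*-/- liver 9 rose and 2 fell, with a median of 0.37 beside 0.25 for all genes. These are 11 of 24, beside 20.7% of all genes called, and with rescaled libraries 8 were higher and 3 lower, with a median of 0.13. *Srsf1* rose by 2.13 (adjusted p = 0.000914), *Zranb2*, a zinc finger RNA-binding protein, rose by 1.75 (0.000813), and *Pnn*, a nuclear RS protein tied to the exon junction complex, rose by 1.33 (0.00788). In *Lpin1*+/+ liver 4 rose with feeding, beside 1.72% of all genes called, and none of the 4 was called with rescaled libraries.

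*Tra2a*, an SR-like splicing activator, was the substrate called for the interaction of genotype and feeding, beside 1.28% of all genes called. Its mean RPKM was 4.74 ± 1.03 in fasted and 11.3 ± 1.82 in refed *Lpin1*+/+ liver, and 9.83 ± 1.37 in fasted and 3.17 ± 0.398 in refed *Lpin1*-/- liver (SD, n = 3). It rose by 1.11 with feeding in *Lpin1*+/+ (adjusted p = 0.0212) and fell by 1.37 in *Lpin1*-/- liver (adjusted p = 0.00146), with an interaction of -2.48 (adjusted p = 0.00379). With rescaled libraries 2 substrates were higher and 1 lower for the interaction. *Tra2a* was also the substrate called for genotype in refed liver (-1.56, adjusted p = 0.00197), beside 6.67% of all genes called.

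Of 22 other kinases that act on SR and spliceosome proteins, 4 rose with feeding in *Lpin1*-/- liver: *Top1* (1.63, adjusted p = 0.00867), a topoisomerase with SR protein kinase activity, *Prpf4b* (1.502, 0.00753), a kinase of the tri-snRNP, *Akt1* (0.89, 0.0316), and *Akt2* (0.88, 0.0246). These are 4 of 22, beside 20.7% of all genes called, with 3 higher and 1 lower in rescaled libraries. The median of the 22 was 0.46 beside 0.25 for all genes. In fasted liver *Cdk9* was higher (0.89, 0.00754) and *Akt2* lower (-0.82, 0.0333) in *Lpin1*-/-, beside 18.8% of all genes called. Of 9 import factors, chaperones, and scaffolds of SRPKs and SR proteins, *Tnpo3*, the import receptor of SR proteins, rose with feeding in *Lpin1*-/- liver (1.23, adjusted p = 0.0151). Of 9 phosphatases and their nuclear subunits, *Ppp1r10* (1.94, 0.0342) and *Ppp2ca* (0.50, 0.039) rose in the same contrast, again beside 20.7% of all genes called, and 1 of the 9 was called with rescaled libraries.

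Of 16 genes of the hepatic insulin and CLK2 axis, 3 rose and 1 fell with feeding in *Lpin1*-/- liver (2 and 1 with rescaled libraries), beside 20.7% of all genes called, and 1 was higher and 2 were lower in fasted *Lpin1*-/- than in fasted *Lpin1*+/+ liver (3 and 1 rescaled), beside 18.8%. *Akt1* and *Akt2*, the insulin-signaling kinases also on the list above, were among them with the values given there. *Igfbp1*, a gene that insulin represses, fell by 4.19 with feeding in *Lpin1*-/- liver (adjusted p = 0.0156) and was 4.77 higher in fasted *Lpin1*-/- than in fasted *Lpin1*+/+ liver (0.00905). Its libraries spread widely: mean RPKM was 122 ± 141 in fasted and 9.64 ± 3.39 in refed *Lpin1*+/+ liver. In *Lpin1*-/- liver it was 3020 ± 3414 in the fasted and 162 ± 176 in the refed state (SD, n = 3). The list medians were -0.36 and 0.01 for feeding in *Lpin1*+/+ and *Lpin1*-/- liver and -0.38 and 0.21 for genotype in fasted and refed liver. The all-gene medians for these contrasts were 0.19, 0.25, -0.14, and -0.07.

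An SE event pairs reads that include an exon with reads that join its neighbors directly, and inclusion is the share of the included form after both counts are divided by the length on which they can fall. The inclusion counts hold reads on the exon body as well as on its junctions, so reads from transcripts that retain the neighboring introns would count as inclusion. The libraries of a group are listed without replicate numbers and are called the first, the second, and the third here. In all, 66 events of the 6 genes were listed in fasted and 43 in refed liver, with 25 in both, and those with 10 or more counts in each library were tested on the log2 ratio of included to skipped form.

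In fasted liver 14 of 65 tested kinase events (21.5%) differed between genotypes, beside 11.3% of all tested events, and 10 of the 14 had higher and 4 lower inclusion in *Lpin1*-/- liver. They fell on 9 of 25 *Clk4*, 3 of 15 *Clk1*, 1 of 12 *Clk3*, and 1 of 4 *Srpk1* events, and on none of 5 *Clk2* or 4 *Srpk2* events. Many of these events share an exon or the same skipping reads, so they are fewer than 14 independent differences. The *Clk3* event is that of an unannotated exon with inclusion counts in *Lpin1*-/- libraries only. Without 1 library 2 to 14 events were called: 3, 6, and 5 without the *Lpin1*+/+ libraries in the order listed, and 6, 2, and 14 without the *Lpin1*-/- libraries. In refed liver 0 of 37 events were called by limma (2 at an unadjusted p under 0.05), beside 0.97% of all events. The median absolute change of the kinase events was 1.44 in fasted and 0.59 in refed liver, beside 1.11 and 0.75 for all events.

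**Figure D3:**
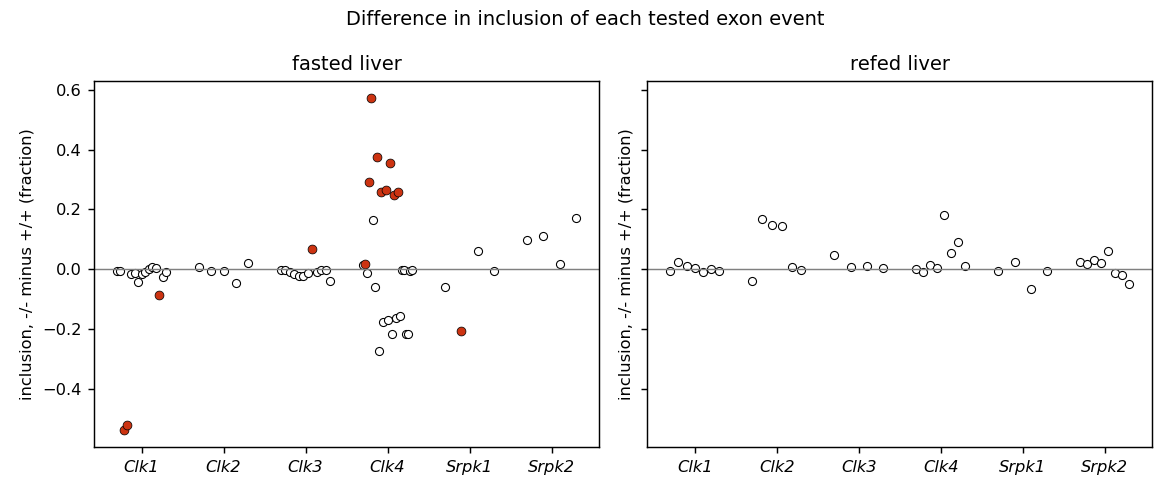
Difference in mean inclusion of every tested kinase event (vertical axis, a fraction, *Lpin1*-/- minus *Lpin1*+/+) in fasted and refed liver, by gene. Filled points passed an adjusted p of 0.05 (limma on the log2 ratio). All 14 filled points are in fasted liver, 9 of them in *Clk4*, and the lowest are the 91-base and 88-base versions of *Clk1* exon 4.

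*Clk1* exon 4, the exon whose skipping removes the kinase domain, was mostly skipped in fasted *Lpin1*-/- liver and mostly included in the other 3 groups. Inclusion was 0.955, 0.767, and 0.869 in fasted *Lpin1*+/+ liver, from 688, 154, and 278 inclusion counts and 14, 20, and 18 skipping counts. It was 0.307, 0.225, and 0.499 in fasted *Lpin1*-/- liver, from 84, 63, and 172 inclusion and 81, 93, and 74 skipping counts. Every *Lpin1*-/- library had more skipping counts than any *Lpin1*+/+ library, while the inclusion counts of the groups overlapped. The change in log2 ratio was -3.90 (SE 0.80, adjusted p = 0.00807 from limma). The call was lost without the first (adjusted p = 0.0601) or the second *Lpin1*-/- library (0.0679).

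In refed liver *Clk1* exon 4 inclusion was 0.927, 0.935, and 0.945 in *Lpin1*+/+ and 0.941, 0.973, and 0.930 in *Lpin1*-/- liver. Those groups overlapped (0.44, adjusted p = 0.786). Feeding raised the log2 ratio in *Lpin1*-/- liver by 5.23 (SE 0.70, adjusted p = 0.000883), and this call was kept in every alternative and without each library in turn. In *Lpin1*+/+ liver the feeding change was 0.89 and not called (adjusted p = 1). The interaction of 4.34 (SE 0.98) missed the threshold (adjusted p = 0.0584) and passed in 3 of 4 alternatives, at adjusted p-values of 0.0288 to 0.0453. The total *Clk1* RPKM gave no genotype call in either state. An 88-base version of the exon that starts 3 bases later had inclusion of 0.807 and 0.270 in fasted *Lpin1*+/+ and *Lpin1*-/- liver (-3.78, adjusted p = 0.00914), with the same skipping reads.

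*Clk1* exon 7, 167 bases at chr1:58417013-58417179, was included almost fully in every group but was skipped at times in fasted *Lpin1*-/- liver. Skipping counts were 1, 0, and 0 in fasted *Lpin1*+/+ and 29, 18, and 1 in fasted *Lpin1*-/- liver, where inclusion was 0.871, 0.870, and 0.995. The third *Lpin1*-/- library was like the *Lpin1*+/+ libraries. The change of -4.02 (SE 1.09, adjusted p = 0.0322) was lost with precision weights (adjusted p = 0.0699) and without any library other than the third *Lpin1*-/- library (0.0972 to 0.166). A further event of the same exon, with another end of a neighboring exon, was not called in fasted liver (-2.31, adjusted p = 0.194 from limma). Its skipping counts were 0 in each *Lpin1*+/+ library and 12, 1, and 0 in *Lpin1*-/- liver. Without exon 7 the main frame of *Clk1* stops after 223 residues.

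*Clk4* exon 4, with 85 of its 91 bases as in *Clk1*, did not give a call in fasted liver. Inclusion was 0.833, 0.451, and 0.826 in *Lpin1*+/+ and 0.368, 0.411, and 0.688 in *Lpin1*-/- liver, from 23, 38, and 13 and from 108, 103, and 61 skipping counts. The second *Lpin1*+/+ library lay among the *Lpin1*-/- libraries, and the change of -1.46 (SE 0.84) did not pass (adjusted p = 0.294). In refed liver inclusion was 0.842, 0.795, and 0.750 in *Lpin1*+/+ and 0.779, 0.925, and 0.846 in *Lpin1*-/- (0.64, adjusted p = 0.689). Feeding raised the ratio in *Lpin1*-/- liver by 2.65 (SE 0.75, adjusted p = 0.0418), a call that was lost without the first (0.151) or the second (0.128) fasted *Lpin1*-/- library, the second (0.165) or the third (0.091) refed *Lpin1*-/- library, or any refed *Lpin1*+/+ library (0.0538 to 0.0547). The feeding change was 0.56 in *Lpin1*+/+ liver (adjusted p = 1), and the interaction of 2.10 was not called (adjusted p = 0.408).

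*Clk2* exon 4 was partly skipped in every group. Its inclusion was 0.848, 0.578, and 0.653 in fasted *Lpin1*+/+ and 0.733, 0.616, and 0.715 in fasted *Lpin1*-/- liver, with means of 0.693 ± 0.140 and 0.688 ± 0.0627 (SD, n = 3). The groups overlapped (-0.12, adjusted p = 0.931). In refed liver it was 0.547, 0.698, and 0.638 in *Lpin1*+/+ and 0.824, 0.780, and 0.719 in *Lpin1*-/-, which did not overlap, and the change of 1.02 (SE 0.53) did not pass (adjusted p = 0.434). An 85-base version of the exon, which lacks the first 3 bases, had mean inclusion of 0.691 and 0.684 in fasted and 0.610 and 0.755 in refed *Lpin1*+/+ and *Lpin1*-/- liver (adjusted p = 0.929 and 0.443). *Clk3* exon 4 was nearly always included, with means of 0.976 in *Lpin1*+/+ and 0.937 in *Lpin1*-/- liver in the fasted state, 0.975 and 0.981 in the refed state, and 0.875 in the lowest library.

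**Figure D4:**
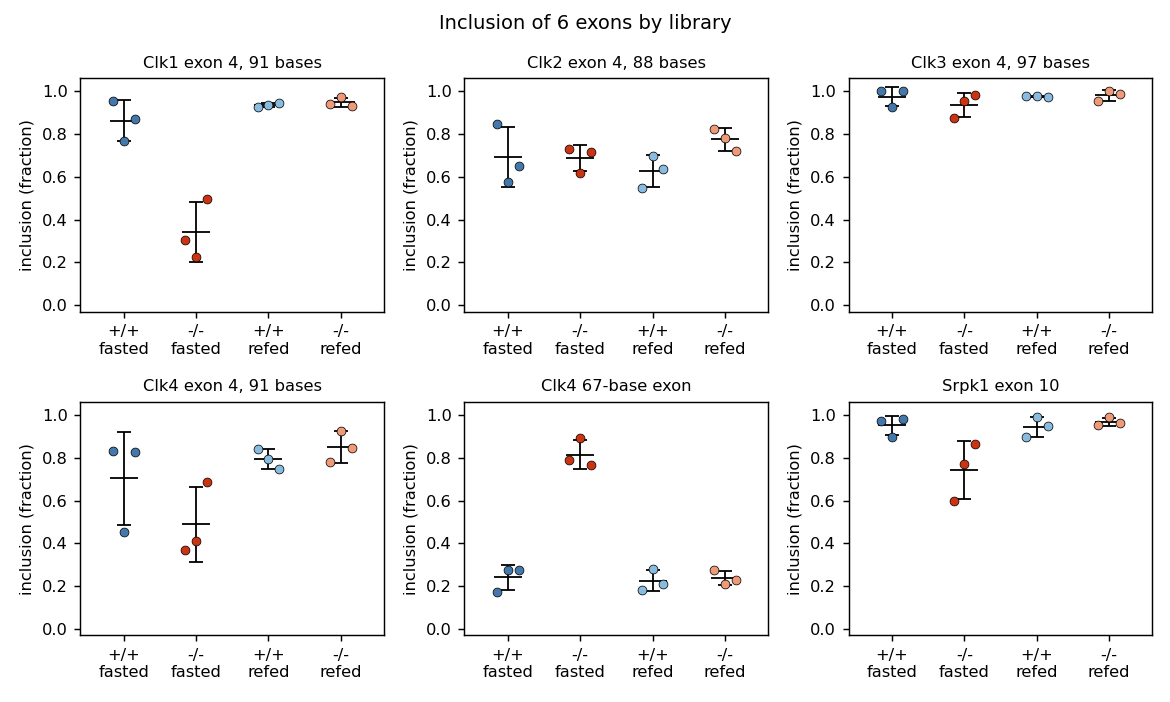
Inclusion (vertical axis, fraction of the included form) of 6 exons in the 4 groups. Points are single libraries, the long bar is the mean, and the short bars are 1 SD (n = 3). *Clk1* exon 4 is low (mean 0.344) and the *Clk4* 67-base exon high (mean 0.815) in fasted *Lpin1*-/- liver alone among the 4 groups.

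The *Clk4* 67-base exon was mostly skipped in 3 groups and mostly included in fasted *Lpin1*-/- liver. Inclusion was 0.173, 0.276, and 0.276 in fasted *Lpin1*+/+ liver, from 42, 37, and 37 inclusion and 101, 49, and 49 skipping counts. It was 0.790, 0.891, and 0.765 in fasted *Lpin1*-/- liver, from 164, 226, and 232 inclusion and 22, 14, and 36 skipping counts. The groups lay far apart, and the change in log2 ratio of 3.85 (SE 0.66, adjusted p = 0.00318) was kept in every alternative and without each library. In refed liver inclusion was 0.184, 0.279, and 0.212 in *Lpin1*+/+ and 0.277, 0.210, and 0.228 in *Lpin1*-/- liver, and the groups overlapped (0.12, adjusted p = 0.944). The included form counts all reads on the exon, whichever exon follows it.

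With feeding, the log2 ratio of the 67-base exon fell by 3.86 in *Lpin1*-/- liver (SE 0.51, adjusted p = 0.000883), also kept in every alternative and without each library. In *Lpin1*+/+ liver it was -0.12 (adjusted p = 1). The genotype effect differed between feeding states, with an interaction of -3.74 (SE 0.72, adjusted p = 0.0312). This was 1 of 24 kinase events called for the interaction (4.17%, 7 at an unadjusted p under 0.05), beside 0.777% of all events. It was kept in all 4 alternatives and lost without any library other than the second fasted *Lpin1*+/+, the third fasted *Lpin1*-/-, and the first refed *Lpin1*-/- library (adjusted p = 0.0590 to 0.0804). The stellate cell marker sum given above, largely *Dcn*, also did not overlap between fasted genotypes. The part of these markers in the exon differences was not tested.

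**Figure D5:**
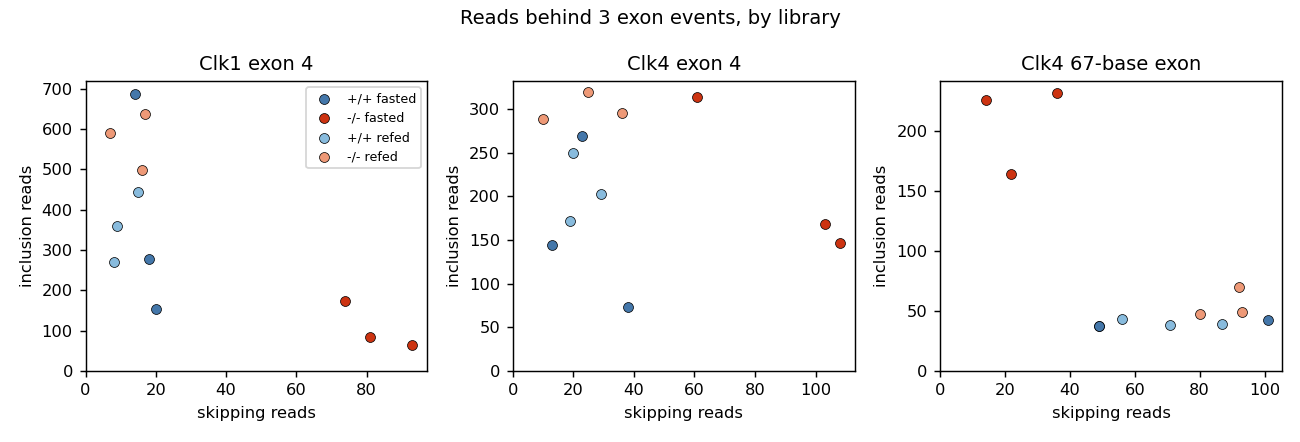
Counts behind 3 exon events in each of the 12 libraries, with skipping reads on the horizontal and inclusion reads on the vertical axis. The fasted *Lpin1*-/- libraries (dark red) have 74 to 93 skipping reads of *Clk1* exon 4 and 164 to 232 inclusion reads of the *Clk4* 67-base exon, more than any other library.

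Of the 9 *Clk4* calls in fasted liver, 3 were on the 67-base exon with different next exons, and 6 lay on exons of 59 to 217 bases between chr11:51270517-51270733, which share the skipping reads of the 67-base exon and overlap the noncoding RNA gene *Gm25082* on the same strand. Of the 3 calls on the 67-base exon, 1 rests on a single skipping count over the 6 libraries. The 79-base exon is an unannotated longer version of the 59-base exon that ends at the same base, so their inclusion reads overlap too. The 59-base exon had inclusion of 0.279 ± 0.0627 in *Lpin1*+/+ and 0.634 ± 0.0958 in *Lpin1*-/- liver (2.18, adjusted p = 0.0471), and the 79-base exon 0.212 ± 0.0324 and 0.588 ± 0.109 (2.41, adjusted p = 0.0299; SD, n = 3). Leaving out any library ended the first call (0.0502 to 0.174), and any library other than the third *Lpin1*-/- library the second (0.0651 to 0.122). In refed liver the 59-base exon was at 0.283 and 0.288 (0.03, adjusted p = 0.987). Where the 59-base exon follows the 67-base exon, its inclusion was 0.701, 0.811, and 0.5999 in fasted *Lpin1*+/+, 0.423, 0.492, and 0.546 in fasted *Lpin1*-/-, 0.699, 0.712, and 0.763 in refed *Lpin1*+/+, and 0.873, 0.917, and 0.925 in refed *Lpin1*-/- liver. Feeding raised this ratio in *Lpin1*-/- liver by 3.18 (adjusted p = 0.00226), the opposite direction to the 59-base exon counted against the direct junction, whose ratio fell by 2.10 (adjusted p = 0.0164). The latter call was lost without the second fasted (0.0691) or the third refed *Lpin1*-/- library (0.0661). With the 67-base and 59-base exons together, neither start gave a long frame: they stop after 53 and 79 residues.

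An unannotated *Clk3* exon of 142 bases, chr9:57757316-57757457, was counted only in the *Lpin1*-/- libraries among the fasted ones. It had 0 inclusion counts in all 3 fasted *Lpin1*+/+ libraries, beside 204, 176, and 159 skipping counts, which allows up to 0.474%, 0.549%, and 0.607% of the included form at 3 counts a library. In *Lpin1*-/- liver it had 37, 38, and 12 inclusion and 109, 125, and 190 skipping counts, or inclusion of 0.0990, 0.0896, and 0.0200. The adjusted p was 0.000905, and 0.127 with precision weights, and the fitted size depends on the 0.5 added to each count. Among the fasted libraries only those of *Lpin1*-/- liver held reads of this unannotated exon. Its listing and its p-value therefore rest on the same reads, and the p-value is not separate support for a difference. The limits cover counting error only. The event was not listed in refed liver, so it could not be compared there.

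*Srpk1* exon 10, 214 bases at chr17:28600243-28600456, was the exon called in the SRPK genes. Inclusion was 0.972, 0.899, and 0.981 in fasted *Lpin1*+/+ and 0.598, 0.769, and 0.866 in fasted *Lpin1*-/- liver, from 2, 3, and 1 and from 17, 15, and 7 skipping counts. All *Lpin1*-/- libraries were below all *Lpin1*+/+ libraries, and the change was -2.68 (SE 0.80, adjusted p = 0.0496). The call was lost with precision weights (0.117) and without the first (0.183) or the third (0.202) *Lpin1*+/+ or the first (0.178) or the second (0.144) *Lpin1*-/- library. Skipping of exon 10 ends the main *Srpk1* frame after 287 of 648 residues. In refed liver inclusion was 0.895, 0.988, and 0.948 in *Lpin1*+/+ and 0.955, 0.989, and 0.961 in *Lpin1*-/- liver (0.60, adjusted p = 0.79). Feeding raised the ratio in *Lpin1*-/- liver by 3.27 (SE 0.84, adjusted p = 0.0272), a call lost without the first (0.119) or the second (0.0698) fasted or the second (0.118) or the third (0.0539) refed *Lpin1*-/- library. An unannotated *Srpk1* exon of 246 bases, chr17:28620208-28620453, had the most reads of its rarer form in this gene and was listed in refed liver only. Its mean inclusion was 0.0511 in *Lpin1*+/+ and 0.0468 in *Lpin1*-/- liver (-0.17, adjusted p = 0.915). In *Srpk2*, an unannotated 93-base exon, chr5:23513490-23513582, had mean inclusion of 0.102 and 0.213 in fasted *Lpin1*+/+ and *Lpin1*-/- liver (1.17, adjusted p = 0.307). In refed liver its means were 0.182 and 0.199.

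Between feeding states, 24 kinase events in both tables could be compared. In *Lpin1*-/- liver 9 of 24 (37.5%) were called, beside 7.8% of all events, with 7 higher and 2 lower in refed liver. The Kupffer cell and lymphocyte marker sums given above for *Srpk1* also did not overlap between these groups, and their part in these calls was not tested. The 9 called events were in *Clk1* (exon 4 in both versions and exon 7), *Clk4* (exon 4 in both versions, the 67-base exon, and both 59-base events), and *Srpk1* (exon 10). Several of them share an exon or the same skipping reads, so they are fewer than 9 independent differences. In *Lpin1*+/+ liver 0 of 24 were called (0 at an unadjusted limma p under 0.05), beside 0% of all events (1459 of 28447 at an unadjusted p under 0.05). The median absolute change was 1.53 in *Lpin1*-/- and 0.51 in *Lpin1*+/+ liver, beside 0.93 and 0.55 for all events. The exon lengths of all 14 events called in fasted liver and all 9 called with feeding were not multiples of 3, and 58 of all 66 kinase events in the fasted table have such lengths.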

How the data were processed

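Liver RNA-Seq libraries of 12 mice were grouped by their labels (n = 3). The authors prepared stranded TruSeq libraries with 69 bp paired-end reads, aligned them with HISAT2 2.0.5 to GRCm38, counted genes with HTSeq 0.6.0, and deposited RPKM, which were used as deposited (the strand setting of the counting is not given in the sources used here). The labels give about 150 M reads per sample. From rMATS the authors deposited, for each library, counts of inclusion and of skipping reads with the lengths of both forms, and columns of their own p-values, FDR, and inclusion differences, which were not used. Event tables summed to 336.6 to 662.6 M inclusion and 26.5 to 40.13 M skipping counts per library, in which a read counts in each event it touches. The group of each list was checked with the *Lpin1*+/+ table by feeding state, where 1524 and 1719 shared events held the same counts.

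Log2(RPKM + 1) of genes with mean RPKM at or above 0.5 was fitted with limma 3.58.1 (R 4.3.3, trended eBayes) over 12 libraries in 4 groups. Ratios of inclusion to skipping counts, each with 0.5 added and divided by length, were fitted likewise on the log2 scale where all libraries had 10 or more counts: 69644 in fasted and 65231 in refed liver for genotype, and 28447 joined events for feeding and the interaction. P-values were adjusted by Benjamini-Hochberg over all features tested, at a threshold of 0.05. Where nothing tells cultures or litters apart, the p-values measure the spread between these mice. The methods were tested on simulated data, where estimates were recovered and the event fit made more false calls than its nominal share at large effects. Sequences and frames came from GENCODE M21 with Python 3.11.15. The members, gene lists, tests, and alternatives were chosen with earlier results of these data known. Named were all 6 genes, *Lpin1*, the 3 genes of highest correlation with each, up to 4 called genes a list and contrast with the largest change (some of them are not reported here), and of the events those called (up to 3 a gene and fit), the event with the most reads of its rarer form in each gene, and exon 4 of the CLK genes. Apart from the 85-base version of *Clk2* exon 4, annotated exons numbered 4 in other CLK transcripts had inclusion of at least 0.977 in each group.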

Additional observations from a re-analysis of the deposited data

Results flagged for a closer look

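The genotype effect on the 67-base exon of *Clk4* differed between feeding states by the test of the interaction: the change in log2 ratio was 3.85 in fasted and 0.12 in refed liver, with an interaction of -3.74 (adjusted p = 0.0312 from limma). The fasted *Lpin1*-/- libraries had inclusion between 0.765 and 0.891, and the remaining 9 libraries between 0.173 and 0.279. Single libraries that stand apart were not tested for in groups of 3.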

How the results depend on the processing

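Of 951 recomputed single values, 836 kept their direction and side of the threshold, 69 lost a call, 5 gained a call, and 41 changed direction, all in values that were not called. The number of kinase genes called for feeding in *Lpin1*-/- liver was 0 in place of 1 with rescaled libraries, with the replicate block, and with only the libraries compared (0 to 1 leaving out a library), and that for genotype in fasted liver was 0 in place of 1 with only the libraries compared (0 to 1). Kinase events called numbered 10 to 15 (2 to 14 leaving out a library) in place of 14 for genotype in fasted liver, 1 in place of 0 in refed liver when the rarer form had at least 5 counts, 5 to 9 in place of 9 leaving out a library for feeding in *Lpin1*-/- liver, and 4 in place of 1 for the interaction with at least 20 counts, with 1 added, or with at least 5 counts of the rarer form (0 to 4 leaving out a library). Causes were not tested.

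Directions that changed were those of *Clk1* for feeding in *Lpin1*-/- liver (-0.0599 rescaled), *Clk3* for genotype in refed liver (0.0892 rescaled, -0.0750 to 0.0370 leaving out a library), and the interaction of *Srpk2* (-0.0195 with a pseudocount of 0.1, -0.012 rescaled, -0.31 to 0.22). Leaving out a library gave *Clk1* -0.20 to 0.20 for feeding in *Lpin1*+/+ liver, -0.0801 to 0.37 for genotype in fasted liver, and -0.0152 to 0.44 for the interaction. It gave *Clk2* -0.19 to 0.0320 for the interaction, *Srpk1* -0.0861 to 0.21 for genotype in fasted liver, and *Srpk2* -0.0172 to 0.51 for feeding in *Lpin1*+/+ liver and -0.33 to 0.20 for genotype in fasted liver. Among events it gave *Clk2* exon 4 -0.52 to 0.46 in fasted liver, the *Clk4* 67-base exon -0.0550 to 0.33 in refed liver and -0.41 to 0.0505 for feeding in *Lpin1*+/+ liver, the *Clk4* 59-base exon -0.0787 to 0.20 in refed liver, *Clk4* exon 4 -0.29 to 1.00 for feeding in *Lpin1*+/+ liver, and *Srpk1* exon 10 -0.0410 to 1.36 in refed liver and -0.78 to 0.63 for feeding in *Lpin1*+/+ liver (0.0542 with 1 added).

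With the replicate number as a block, *Srpk1* for feeding in *Lpin1*-/- liver kept its change of 0.62 but not its call (adjusted p = 0.0671), and no other kinase gene changed its call. The numbers were not treated as pairs: of 18 pairs of libraries with the same number in different groups, 8 had deviations correlated above 0.1 (range -0.474 to 0.743), and 4 of 12 libraries correlated best with their own number. No paired analysis was possible for the exon events because their lists carry no replicate numbers.

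All-gene counts over the settings were 0 to 191 in place of 198 for feeding in *Lpin1*+/+ liver (23 to 229 leaving out a library), 1712 to 2496 in place of 2382 for feeding in *Lpin1*-/- liver (1119 to 3105), 1011 to 2324 in place of 2168 for genotype in fasted liver (1040 to 2316), 526 to 764 in place of 767 for genotype in refed liver (243 to 1048), and 81 to 321 in place of 147 for the interaction (30 to 176). All-event counts were 3371 to 8960 in place of 7892 in fasted liver (3821 to 9479 leaving out a library), 790 to 1369 in place of 633 in refed liver (0 to 15), 1519 to 4305 in place of 2220 for feeding in *Lpin1*-/- liver (1078 to 2781), 0 to 7 in place of 0 for feeding in *Lpin1*+/+ liver (0 to 2), and 45 to 431 in place of 221 for the interaction (6 to 425).

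Few skipping counts limit *Clk1* exon 7 and *Srpk1* exon 10.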
